A study of Mus musculus with 5 samples.

Results

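Small nucleolar RNA (snoRNA) host genes of the non-coding kind are genes whose introns carry snoRNAs and whose spliced exons encode no known protein. The 7 studied here, Gas5, Snhg1, Snhg3, Snhg5, Snhg6, Snhg8 and Snhg12, were chosen by gene name. Of these, 6 were among the 18349 genes with a row in the deposited expression table, and Snhg8 had none. All values come from MEL cells, a mouse erythroleukemia line grown without any treatment. PABPC1, a cytoplasmic protein that holds poly(A) tails, was crosslinked to RNA with ultraviolet light (400 mJ/cm2) and precipitated from lysate treated with RNase for 10 min, and the attached RNA was sequenced (CLIP-seq, 3 samples). Poly(A)-selected RNA of the same line was sequenced in 2 further samples (mRNA-seq). For each assay the authors deposited pooled values only, with no value per sample, so nothing below has a replicate error and no difference was tested.

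A snoRNA is a small nuclear RNA that guides chemical modification of ribosomal RNA. Box C/D snoRNAs guide ribose methylation and box H/ACA snoRNAs guide pseudouridylation. Most vertebrate snoRNAs are trimmed out of excised introns by exonucleases and have no poly(A) tail, while the spliced exons of the host form a separate, capped and polyadenylated RNA. Several of these spliced host RNAs, that of Gas5 being the best known, reach ribosomes and are short-lived because they are degraded by nonsense-mediated decay. PABPC1 acts in translation and in mRNA turnover, and a CLIP-seq tag within the host marks contact with sequence encoded by the gene.

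The line was checked against erythroid markers. Of 10 erythroid markers, 9 had at least 1 RPKM (reads per kilobase of exon, scaled to a common library size), among them the transcription factors Klf1 at 428 RPKM and Gata1 at 211 RPKM, while the band 3 gene Slc4a1 was at 0.122 RPKM. Of 6 fibroblast markers, Thy1 was at 65.3 RPKM, Pdgfrb at 2.6 RPKM and Col1a1 at 0.873 RPKM, and the other 3 had no row. None of 5 markers of other blood cells reached 1 RPKM. Depth per sample could not be read from the pooled tables. In bulk RNA, fewer expressing cells and less RNA per cell cannot be told apart.

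The 3' ends of the spliced hosts are printed first, because most of the CLIP signal described further on lies near them. The sequences are the last 60 nt of 1 reference transcript per host (GENCODE M21, mm10), with the poly(A) signals AATAAA and ATTAAA in capitals.
Gas5, chr1:161038478-161038537, plus strand: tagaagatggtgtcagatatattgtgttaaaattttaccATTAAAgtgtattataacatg
Snhg1, chr19:8726384-8726443, plus strand: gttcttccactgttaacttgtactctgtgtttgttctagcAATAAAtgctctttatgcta
Snhg3, chr4:132351934-132351993, minus strand: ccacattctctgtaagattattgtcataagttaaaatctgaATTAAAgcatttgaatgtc
Snhg5, chr9:88521052-88521111, minus strand: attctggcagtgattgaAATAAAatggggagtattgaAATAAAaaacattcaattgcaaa
Snhg6, chr1:9941959-9942018, minus strand: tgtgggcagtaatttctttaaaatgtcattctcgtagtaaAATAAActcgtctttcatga
Snhg8, chr3:123507557-123507616, minus strand: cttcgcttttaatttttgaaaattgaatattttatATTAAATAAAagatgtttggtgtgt
Snhg12, chr4:132310965-132311024, plus strand: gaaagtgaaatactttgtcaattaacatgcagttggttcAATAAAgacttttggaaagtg

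All 7 hosts carried a signal in these 60 nt, and the last signal ended 13 to 17 nt before the annotated end. A signal in the same window was found in 68.5% of 12386 genes with an end sequence, in 58% of 459 long non-coding genes and in 79.3% of 10246 protein-coding genes. Gas5 and Snhg3 carried the variant ATTAAA alone. Snhg5 carried AATAAA at 2 places, and Snhg8 an overlapping pair of both forms. Adenine made up 20% of the 60 bases in Snhg1 and 45% in Snhg5, the lowest and highest shares. None of the 7 shared 100 nt at 90% identity with a transcript of another gene.

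The hosts differed in size and in what they carry. Gas5 spans chr1:161034422-161038539 on the plus strand (mm10), and its reference transcript is 502 nt in 12 exons. Its introns hold 9 snoRNA loci, the most of the 7. Snhg1 spans chr19:8723475-8726443 on the plus strand, with 709 nt in 9 exons and 8 snoRNA loci. Snhg12 spans chr4:132308623-132311024 on the plus strand, with 606 nt in 5 exons and 4 snoRNA loci (Snora16a, Snora44, Snora61 and Snord99).

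The other hosts lie on the minus strand and carry fewer snoRNAs. Snhg3 spans chr4:132348014-132353686, with 581 nt in 2 exons, and holds Snora73a and Snora73b. Snhg5 spans chr9:88521050-88522929, with 1004 nt in 5 exons, and holds Snord50a and Snord50b. Snhg6 spans chr1:9941959-9944118, with 473 nt in 4 exons, and holds Snord87. Snhg8 spans chr3:123507552-123508404, with 528 nt in 2 exons, and holds Snora24. Gas5 overlaps Zbtb37 on the opposite strand, the 3' end of Snhg6 overlaps Mcmdc2 on the opposite strand, and Snhg3 lies inside the span of Rcc1 on the same strand. Peaks and deletion sites carry a strand, but no source used here says whether the mRNA-seq reads were counted by strand.

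The spliced hosts were abundant for non-coding RNAs. On the deposited RPKM scale Gas5 stood at 143, Snhg5 at 103, Snhg1 at 83.6, Snhg3 at 51.4, Snhg12 at 26.1 and Snhg6 at 20.6. The 6 had a median of 67.5 RPKM, beside 17.5 for 12400 genes with at least 1 RPKM and 2.87 for the 459 long non-coding genes among them. Among long non-coding genes even Snhg6, the lowest, stood above 91.3%, and Gas5 above 98%. No spread between samples is available, so neighbours in this order cannot be told apart or ranked beyond their single values.

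The length behind these RPKM values bears on their size. Over 4946 genes with an identical versioned identifier, RPKM times the union of all annotated exons was a whole multiple of 1 value (a tolerance of 0.01 reads) in 100% of the 3560 genes under 200 reads. That gives 35251228 reads in the pooled table, with the union of exons of all transcripts, including those that retain introns, as the divisor for those genes. Among the hosts this union gave whole reads for Gas5, Snhg3 and Snhg6 but not for Snhg1, Snhg5 and Snhg12. Of the lengths tried, 136 gave whole reads for Snhg3 and 20 for Snhg6, so the match is weak for those hosts. For Gas5 this union is 3760 nt, which gives 19007 reads, while the exons of its spliced basic transcripts cover 851 nt. For Snhg1 the shortest length that gave whole reads was 2947 nt (8683 reads) beside 865 nt of basic exons. For Snhg5 it was 1475 nt, beside a union of 1730 nt, and for Snhg12 several lengths from 813 nt upward gave whole reads, so the divisor is not known for these. If all reads lay in the basic exons and the divisor was the GENCODE M21 union throughout, the RPKM would be 634 for Gas5, 287 for Snhg1, 171 for Snhg5, 87.2 for Snhg3, 44.2 for Snhg12 and 24.1 for Snhg6. The values for Snhg1, Snhg5 and Snhg12 are approximate for that reason. Gas5 remained highest on that scale, and Snhg1 then stood above Snhg5.

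All 6 hosts with an RPKM row had PABPC1 peaks in their exons. An exonic peak was found in 86.9% of all genes with at least 1 RPKM and in 56.2% of the long non-coding ones. Each peak carries the authors' own score, read here as its height in tags. At each of the 16 exonic deletion sites of these hosts that lay inside a peak, the tags covering the base did not exceed that score. Over the 6 hosts there were 34 peaks with 5977 tags in all, and 22 of them, with 5352 tags (89.5%), had their midpoint in a host exon. The exonic peaks had a median height of 116 tags (range 10 to 1377), beside a median of 9 over all 90337 deposited peaks (range 2 to 10814). The deposited peaks include those outside exons and in genes of lower abundance, so the sets are unlike. The part of place and abundance in this gap was not tested. The plot by place shows how the summed height of each host divides between exons, introns and snoRNAs.

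**Figure D1:**
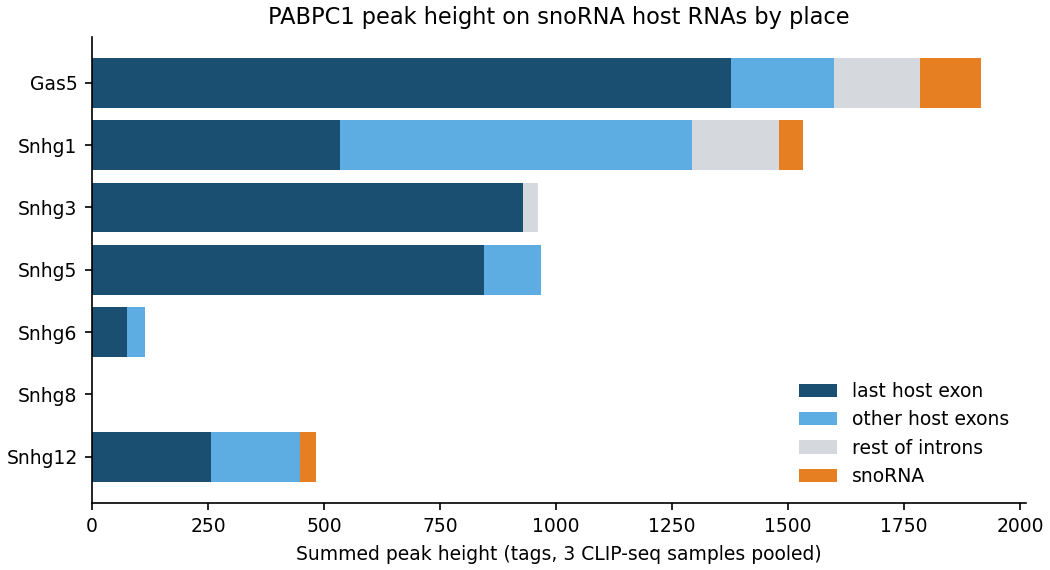
Summed PABPC1 peak height (tags) per host, stacked by where midpoints lie: last exon, other exons, rest of introns or annotated snoRNA. The 7 last-exon peaks span 76 to 1377 tags and sum to 4017. The 5 peaks on snoRNAs span 13 to 84 and sum to 219. Snhg8 had no peak.

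Gas5, the growth-arrest host, held the tallest of these peaks. Its last exon carried 1 peak of 1377 tags (chr1:161038462-161038540), taller than 99.1% of the genes' tallest exonic peaks. Its other exonic peaks had 105 tags in exon 10, 97 in exon 9 and 21 in exon 6. The last-exon peak was 13.1 times the next, the largest such ratio of the hosts with more than 1 exonic peak. It held 86.1% of the exonic height (95% exact binomial interval 84.3 to 87.7) in an exon that makes up 16.1% of the spliced length. This interval, like those of the other hosts' last-exon shares, takes summed peak heights as counts of independent tags. Sums of peak heights are not such counts, so these intervals are only rough. The peak ran 3 nt beyond the annotated end of the reference transcript.

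Snhg1 had a flatter profile, with 5 exonic peaks that sum to 1292 tags. The last exon carried 535 tags (chr19:8726236-8726446), exon 2 had 246, exon 3 had 175 and exon 8 had 170. A further peak of 166 tags lay in an exon of another basic transcript that overlaps the snoRNA Snord22. The last exon held 41.4% of the height (38.7 to 44.2) and 28.9% of the length, so Snhg1 was the host with the most signal upstream of its last exon.

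Snhg3, which carries only H/ACA snoRNAs, had a single exonic peak of 929 tags in its last exon (chr4:132351945-132352245). It was centred 161 nt from the 3' end. It was taller than the tallest exonic peak of 97.7% of genes with at least 1 RPKM, again with genes without a peak as 0. A second peak of 33 tags lay at the first exon of transcripts outside the basic set and was counted as intronic.

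Snhg5, host of the paired Snord50 genes, had 2 peaks in its last exon and 1 in exon 2. They had 512 tags (chr9:88521333-88521450), 332 tags (chr9:88521052-88521320) and 124 tags. The last exon held 87.2% of the height (84.9 to 89.2) and 39.5% of the length. The taller of its last-exon peaks was centred 339 nt from the end and the lower one 134 nt from it, so in Snhg5 the highest signal was not the one at the 3' end.

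Snhg12 and Snhg6 had lower peaks. In Snhg12 the 5 exonic peaks rose along the RNA toward the 3' end. They had 16 and 24 tags in exon 1, 44 in exon 2, 108 in exon 4 and 256 in exon 5 (chr4:132310836-132311025). A peak of 34 tags on Snord99, between those of exons 4 and 5, is placed as snoRNA. Counted as exonic, it would break the rise. In Snhg6 the exonic peaks had 10 tags in exon 1, 11 in exon 2, 18 in exon 3 and 76 in exon 4 (chr1:9941959-9942165), also a rise toward the 3' end. The last exon held 57.1% of the height in Snhg12 (52.4 to 61.8) and 66.1% in Snhg6 (56.7 to 74.7). These exons make up 31.5% and 41.6% of the spliced lengths.

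**Figure D2:**
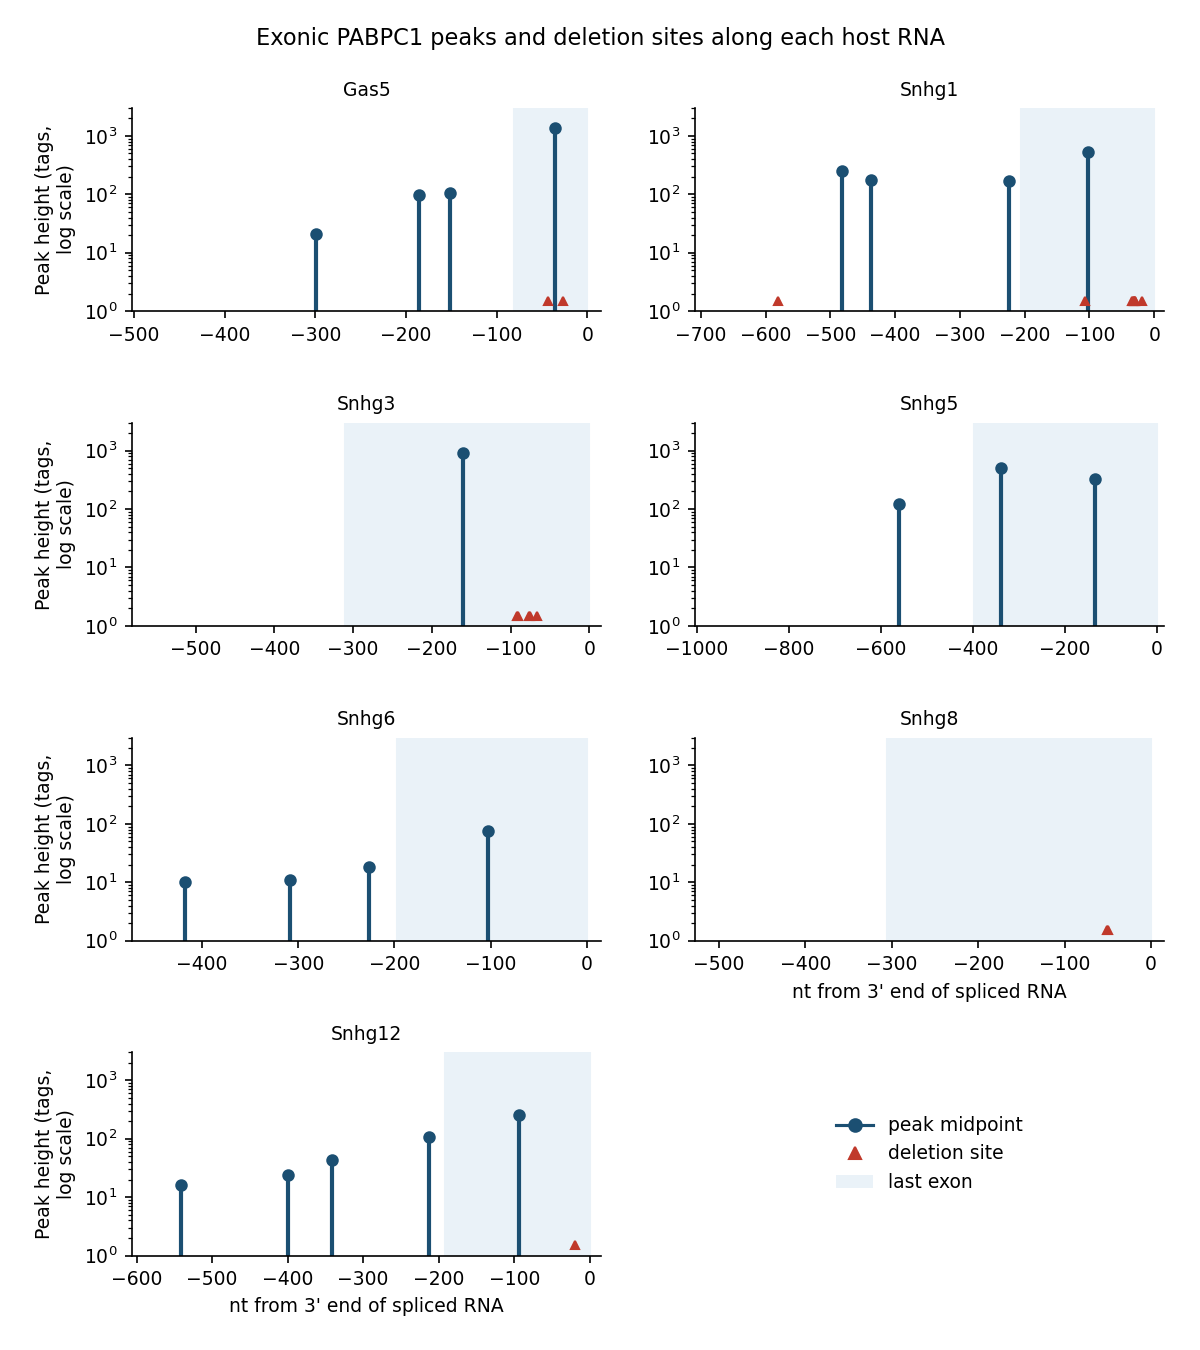
Exonic PABPC1 peaks (stems, height in tags on a log scale) and deletion sites (triangles, no height) along each reference transcript in nt from the 3' end, with the last exon shaded. The tallest stem of each of the 6 hosts with peaks lies in the shaded last exon, and Snhg8 has deletion sites and no peak; the Snhg1 peak in an exon of another transcript is not drawn.

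The tallest exonic peak lay in the last exon in 6 of 6 hosts. That was so in 90.7% of 10006 genes with an exonic peak and more than 1 exon, and in 77% of 244 long non-coding ones, so the members' count is near the background. The last exon held a median of 76.1% of the exonic height over the 6 hosts, in 35.5% of the length. Over all genes it held a median of 92.9% of the height in 49.3% of the length. The hosts thus had short last exons and a smaller median share of height there than genes at large. The hosts' length shares, here and above, are of the reference transcript, while heights are summed over the exons of all basic transcripts. In all 6 but Snhg3 those exons cover more bases, such as 1418 nt beside 606 nt in Snhg12 and 979 nt beside 473 nt in Snhg6.

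PABPC1 peak height stood high beside the RPKM of the spliced hosts. Summed exonic height was 1600 tags in Gas5, 1292 in Snhg1, 968 in Snhg5, 929 in Snhg3, 448 in Snhg12 and 115 in Snhg6. The log2 ratio of height to RPKM, each with 1 added, was 4.15 in Snhg3, 4.05 in Snhg12, 3.93 in Snhg1, 3.47 in Gas5, 3.22 in Snhg5 and 2.43 in Snhg6. The median was 3.70, beside 2.42 over all 12400 genes, 2.78 over protein-coding genes and -0.07 over long non-coding genes. Genes without a peak are included there, while all 6 hosts had a peak. Among genes with a peak the medians were 2.72 over all genes, 2.84 over protein-coding genes and 1.94 over 258 long non-coding genes. Snhg6 stood at the 50th percentile of all genes and Snhg3 above 85.8% of them.

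That ratio depends on the length used in RPKM. With RPKM rescaled to the basic exons, as an upper value, the ratio was 1.34 in Gas5, 2.17 in Snhg1, 2.21 in Snhg6, 2.50 in Snhg5, 3.31 in Snhg12 and 3.40 in Snhg3. The median was then 2.35 beside 1.99 over all genes, and 5 of 6 hosts stood above the latter, with Gas5 below it. Gas5 thus had the tallest peak and the lowest rescaled ratio. Peak height per kb of exon needs no RPKM, and on that scale Gas5 had 1880 tags per kb, Snhg3 1599, Snhg1 1494, Snhg5 926, Snhg12 316 and Snhg6 117. The all-gene median was 38.3 tags per kb, and Gas5, Snhg3 and Snhg1 stood above 99.5%, 99.4% and 99.3% of genes. This scale does not correct for abundance, whose median was 67.5 RPKM in the 6 hosts and 17.5 RPKM over all genes. For a given height it is also larger where exons are short. The basic exons cover 851 nt in Gas5, 581 nt in Snhg3 and 865 nt in Snhg1.

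**Figure D3:**
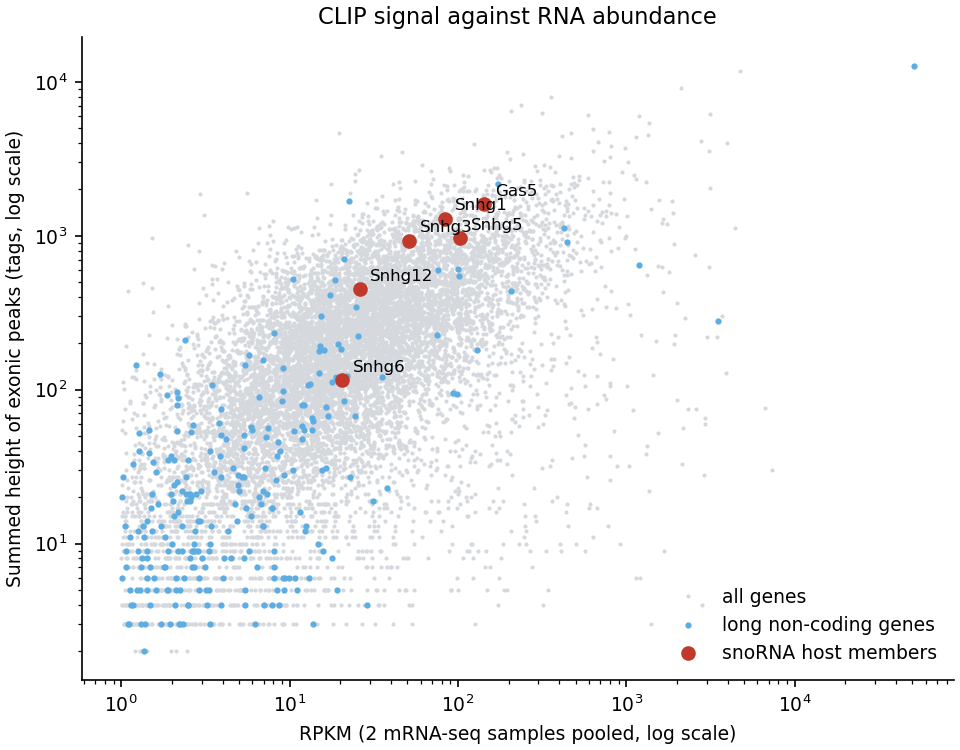
Summed height of exonic PABPC1 peaks (tags, log scale) against RPKM (log scale) for all genes, long non-coding genes and the 6 hosts with an RPKM row. The 6 hosts lie from 115 to 1600 tags and from 20.6 to 143 RPKM, above most long non-coding genes on both axes.

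Introns and snoRNAs gave little of the signal. Without Snhg8, which is described further on and had no peak, the hosts hold 26 snoRNA loci, of which 8 were touched by a peak and 5 held a peak's midpoint. These 5 peaks summed to 219 tags. The other intronic peaks were 7, with 406 tags, and 5 of those overlapped a host exon in part, which leaves 2 with no exonic base. None of the 5 loci with a Snora (H/ACA) name in these 6 hosts was touched by a peak. Peaks on snoRNAs occurred in Gas5, Snhg1 and Snhg12, and the snoRNAs under them are shown because their letters show which class they belong to. Capitals mark the match to the box C letters TGATGA nearest the start and to the box D letters CTGA nearest the end. Other matches inside Mir5117, Snord80 and Gm24453 are left in lower case. Sequences are on the RNA strand, taken from GENCODE M21 transcripts (mm10).
Mir5117 in Gas5 (annotated as a snoRNA), chr1:161037356-161037439, plus strand: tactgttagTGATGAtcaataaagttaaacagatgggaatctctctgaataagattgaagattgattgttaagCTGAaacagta
Snord47 in Gas5, chr1:161038082-161038158, plus strand: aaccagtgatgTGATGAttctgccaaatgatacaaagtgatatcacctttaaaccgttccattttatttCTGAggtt
Snord80 in Gas5, chr1:161037601-161037681, plus strand: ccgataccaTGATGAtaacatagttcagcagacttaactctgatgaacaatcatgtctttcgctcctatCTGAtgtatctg
Gm24453 in Snhg1, chr19:8724868-8724943, plus strand: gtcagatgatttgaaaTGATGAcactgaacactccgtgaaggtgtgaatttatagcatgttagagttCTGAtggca
Snord99 in Snhg12, chr4:132310691-132310764, plus strand: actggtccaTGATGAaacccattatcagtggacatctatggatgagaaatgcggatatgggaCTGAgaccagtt

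All 5 carried both boxes near their ends. The peaks had 84 tags on Mir5117, 36 on Snord47, 13 on Snord80, 52 on Gm24453 and 34 on Snord99. The peaks covered the whole of Mir5117 and Snord47, and 43.2% of Snord80. The Snord99 locus also lies within an exon of another basic Snhg12 transcript, so its tags can come from either RNA. The tallest of these 5 peaks had 84 tags, below the 105 tags of the second exonic peak of Gas5. No deletion site lay in a snoRNA.

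Deletion sites are single bases at which reverse transcription skipped a base, as can happen at a crosslinked nucleotide, so they place contact more narrowly than a peak. The spans of the 7 hosts held 21 of the 11907 deposited sites, 19 of them in host exons. Of the 6 hosts with an RPKM row, 4 had an exonic site, beside 31.3% of all genes and 8.71% of long non-coding genes with at least 1 RPKM. With at least 12 deletions required, Snhg12 lost its site and 3 of the 6 had one. Snhg8 also had sites, and Snhg5 and Snhg6 had none. Of the 19 exonic sites, 18 lay in a last exon, all between 19 and 107 nt from the 3' end. The deleted base was T at 12 sites, A at 5, G at 2 and C at none. A run of 6 adjacent Snhg1 sites (TGTGTT), described below, is counted base by base here and holds the G sites.

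Short windows around the sites with the most deletions, or the one nearest the end, show their sequence setting. Each is 30 nt on the RNA strand (GENCODE M21, mm10), with the deleted base in capitals.
Gas5, chr1:161038494, plus strand: agaagatggtgtcagAtatattgtgttaaa
Snhg3, chr4:132352010, minus strand: ttatataaaccatatAtgtcatttttctgt
Snhg8, chr3:123507607, minus strand: gggaatcttcgctttTaatttttgaaaatt
Snhg1, chr19:8726424, plus strand: tgtgtttgttctagcAataaatgctcttta
Snhg12, chr4:132311004, plus strand: acatgcagttggttcAataaagacttttgg

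The last windows share a feature. In both Snhg1 and Snhg12 the deleted base was base 1 of the AATAAA signal, 19 and 20 nt from the 3' end. It was deleted in 15 of 375 tags in Snhg1 (4%, 95% exact interval 2.26 to 6.51) and in 11 of 253 tags in Snhg12 (4.35%, 2.19 to 7.65). These intervals, like those that follow, cover counting error only.

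In Gas5 the main site lay 43 nt from the end, under the peak of 1377 tags, and 95 of 1078 tags (8.81%, 7.19 to 10.7) carried the deletion. A second exonic site, 27 nt from the end, had 19 of 859 tags (2.21%, 1.34 to 3.43). In Snhg3 the strongest pair lay 75 and 76 nt from the end, with 31 of 322 tags (9.63%, 6.64 to 13.4) and 31 of 312 tags (9.94%, 6.85 to 13.8). Its other sites were 66 nt from the end, with 9 of 435 tags (2.07%), and 91 and 92 nt from the end, each with 6 of 75 tags (8%). The deleted shares at the exonic sites of Gas5 and Snhg3 stood below the median of 12.8% over all deposited sites.

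Gas5 also had a pair of adjacent intronic sites at chr1:161036196 and chr1:161036197, at the start of a run of cytosines. The deletion was in 7 of 8 tags (87.5%, 47.3 to 99.7) and 6 of 8 tags (75%, 34.9 to 96.8). With 8 tags each, these shares are known only roughly, and whether the genome of this line differs there was not tested. The first of them is shown with the deleted base in capitals.
Gas5 intron, chr1:161036196, plus strand: ttttacataaagattCcccccccccaggac

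Snhg1 had a run of 6 adjacent sites that differed from the rest. Positions chr19:8726409-8726414, 34 to 29 nt from the end, each had 134 to 136 deletions, while the tags covering them ranged from 176 to 381. The deleted share therefore ran from 35.7% (30.9 to 40.7) to 76.1% (69.1 to 82.2). The deposited list holds 8814 runs of adjacent sites, of which 21 have at least 6 sites, and in 5 of these 21 the lowest count is at least 95% of the highest. Whether the genome of this line lacks these bases was not tested. The run is in capitals here.
Snhg1, chr19:8726389-8726434, plus strand: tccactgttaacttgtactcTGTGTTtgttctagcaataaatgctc

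The remaining Snhg1 sites were apart from that run. The site 107 nt from the end had 16 of 170 tags (9.41%, 5.48 to 14.8). A site in exon 1 had 3 of 3 tags and no peak, the only exonic site of the 7 hosts outside a last exon.

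**Figure D4:**
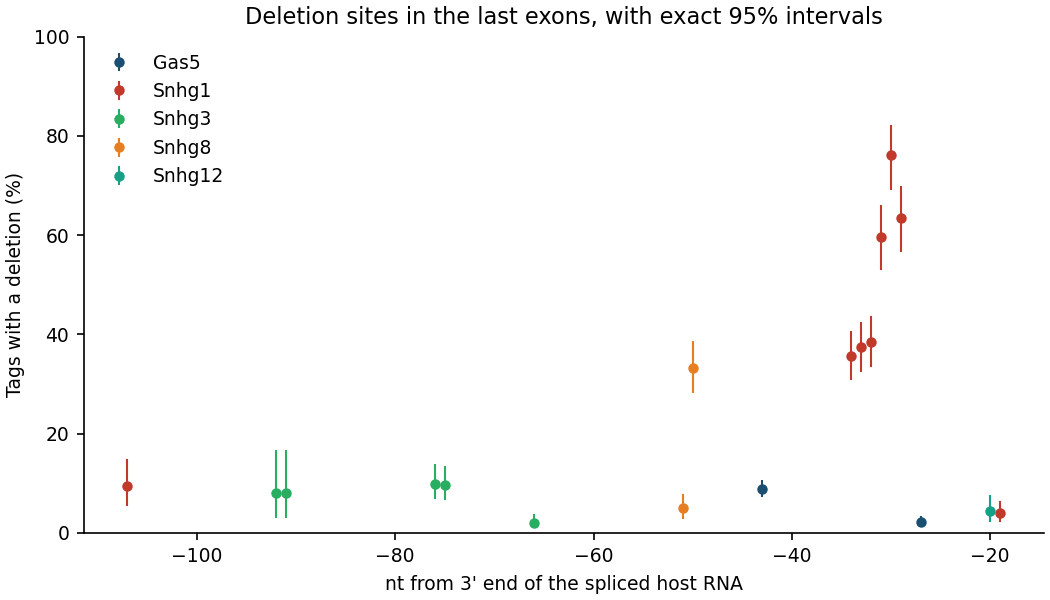
Percent of covering tags with the deletion at exonic sites within 110 nt of the 3' end, in the 5 hosts that had one. The horizontal axis is distance in nt from the 3' end, and bars are 95% exact binomial intervals (counting error only). The Snhg1 site in exon 1, with 3 of 3 tags, lies 581 nt from the end and is not drawn. The 6 adjacent Snhg1 sites between 29 and 34 nt reach 35.7% to 76.1%, while all Gas5, Snhg3 and Snhg12 exonic sites lie below 10%.

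Snhg8 was the host with deletion sites and no peak. The base shown above, 50 nt from the 3' end, was deleted in 106 of 319 tags (33.2%, 28.1 to 38.7), and the neighbouring base in 16 of 323 tags (4.95%, 2.86 to 7.92). Yet no peak lay within 1 kb of the gene on its strand, and no RPKM was listed. Its identifier number (104960) is higher than the highest in the RPKM table (99310). Over the series, deletion sites that fall only in exons of genes with such newer identifiers lay inside a peak in 10 of 80 cases (12.5%, 6.16 to 21.8), beside 9610 of 9917 other exonic sites (96.9%, 96.5 to 97.2). At 300 tags or more the shares were 1 of 17 (5.88%, 0.149 to 28.7) and 2706 of 2745 (98.6%, 98.1 to 99). Snhg1, matched by symbol, also has a number above 99310 in GENCODE M21, yet it had peaks. Its sites at 300 tags or more lay inside a peak, so the newer class cannot hold them all. Why Snhg8 lacks a peak was not tested, and Snhg8 was left out of every count of peaks.

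The poly(A) signal AATAAA, its variant ATTAAA, the homopolymer AAAAAA and the related hexamer ATATAA were counted, overlaps included, within 20 nt on either side of each position on the RNA strand. At least 1 of them lay beside 13 of the 19 exonic deletion sites (68.4%) and beside 1 of 22 exonic peak midpoints (4.55%, or 22.7% within 50 nt). Of all 4403 positions of the hosts' reference transcripts, which leave out exons of other basic transcripts, 496 (11.3%) had one beside them. Adjacent sites share their window, and counted as 11 runs the share was 6 (54.5%). AATAAA lay beside 8 sites, all in Snhg1 or Snhg12, and ATATAA beside 4 sites, all in Snhg3. AAAAAA lay beside none of the sites and beside 1.64% of the positions. The sites of Gas5 and Snhg8 were matched by ATTAAA at 1 site only, in Gas5. These counts describe the letters near 3' ends, where both the sites and the signals lie.

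Other genes of snoRNA biology were taken from lists. Of 13 other long non-coding snoRNA hosts listed, 10 were in the annotation, 6 had at least 1 RPKM and 5 of these had an exonic peak. Zfas1, a host of box C/D snoRNAs, stood closest to Gas5 in level, at 174 RPKM with 2166 tags and 10 deletion sites, a log2 ratio of 3.63. Snhg20 had 35.6 RPKM and a ratio of 1.74, and Snhg17 had 17 RPKM and a ratio of 1.92. Snhg15, at 23.5 RPKM, had no peak. The median ratio of these 6 was 2.75, beside 2.42 over all genes, and 3 of the 6 were above it.

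Protein-coding genes that hold a snoRNA in an intron numbered 273, of which 201 had at least 1 RPKM. An exonic peak was present in 194 of these 201 (96.5%), beside 96.6% of all protein-coding genes with at least 1 RPKM, so the count is at the background. A deletion site was present in 104 of these 201, beside 37% of all protein-coding genes with at least 1 RPKM. Median abundance was 37.2 RPKM in these hosts and 19.6 RPKM over protein-coding genes, and its part in this share was not tested. The protein-coding hosts had a median ratio of height to RPKM of 2.69, beside 3.70 for the members. Among the most abundant were ribosomal protein and translation factor genes, and those named here had ratios below that median: 1.30 for Rpl4 at 4768 RPKM, -0.61 for Rpl32 at 3140 RPKM and 0.57 for Eef2 at 2781 RPKM.

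The proteins that bind snoRNAs were also described. All 4 core genes of the box C/D particle had peaks and ratios below the all-gene median of 2.42. Nop58, itself a core scaffold, had 344 RPKM and a ratio of 2.02, Nop56 120 RPKM and 0.95, the methyltransferase Fbl 54.8 RPKM and -2.34, and Snu13 47.3 RPKM and -0.10. Of the 4 core genes of the box H/ACA particle, 2 stood above that median. The pseudouridine synthase gene Dkc1 had 112 RPKM and 3.82, Nop10 88.7 RPKM and 2.95, Gar1 101 RPKM and 2.32, and Nhp2 338 RPKM and 0.89. Of 8 assembly factors, 2 stood above the median. A deletion site was present in 7 of the 8 assembly factors, in 1 of the 4 box C/D core genes and in all 4 box H/ACA core genes. The share over protein-coding genes was 37%, as given above. Median abundance was 69.4, 87.4 and 106 RPKM in these lists, in that order, beside 19.6 RPKM over protein-coding genes. Its part in these counts was not tested. The median ratio of the assembly factors was 1.97.

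The long non-coding genes most like the members were found by distance in the plane of log2(RPKM + 1) and log2(summed height + 1) from the members' median, over 1 pooled value of each kind per gene. Of the 453 that are not members, 1110038B12Rik was nearest (distance 0.70), with 76.2 RPKM, 599 tags in 3 peaks and 1 deletion site. Epb41l4aos came next (0.87), with 100 RPKM, 612 tags in 2 peaks and 2 sites. Mir17hg, the host of a microRNA cluster, followed (1.02), with 102 RPKM, 546 tags in 7 peaks and 1 site. The first of these holds 2 annotated snoRNAs, Epb41l4aos holds 1 and Mir17hg holds none.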

How the data were processed

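Per the submitters' processing notes, the tools were HTSeq 0.6.0, TopHat2 2.0.12, Novoalign 3.02.02 and cutadapt 1.4.2, on mm10. The peak caller and its thresholds are not given in the sources used here. What the authors deposited was 1 table of RPKM values for the 2 mRNA-seq samples, 1 list of peaks with a score each, and 1 list of deletion sites with a count of deletions and covering tags each, both for the 3 CLIP-seq samples. Peaks were placed by midpoint on the gene's strand in GENCODE M21: annotated snoRNA first, then host exons (basic transcripts without retained introns), then intron. The reference transcript was the best supported, then longest. Members were matched by identifier, Snhg1 by symbol. The ratio was log2((summed height + 1)/(RPKM + 1)) over genes with at least 1 RPKM. Placement was tested on simulated data. Shares have 95% exact Clopper-Pearson intervals, which cover counting error only, since tags without molecular identifiers are not independent molecules. Those of last-exon shares are rougher still, since they rest on summed peak heights rather than tag counts. Named genes were all members with their sites, the 3 nearest long non-coding genes, and up to 4 of each list by RPKM. Members and lists were chosen with earlier results of these data known. Python 3.11.15, pandas 2.3.3, numpy 2.4.6, scipy 1.17.1 and BLAST 2.17.0 were used. Alternatives covered placement, height and deletion minimums, pseudocounts, backgrounds and windows.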

Additional observations from a re-analysis of the deposited data

How the results depend on the processing

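No paired analysis was possible because the CLIP-seq samples share 1 peak list and 1 site list and the mRNA-seq samples share 1 RPKM column; for the same reason leaving out each replicate could not be run. Counting any overlap with a snoRNA gave 9 peaks on snoRNAs rather than 5, by construction. The members' median log2 ratio of 3.70 became 2.95 with the tallest peak alone and 2.35 with RPKM rescaled to basic exons. Their median percentile by that ratio, 77.8, became 96.1 with height per kb in place of height, still divided by RPKM. It became 57.8 with rescaled RPKM and 92 among long non-coding genes. Adjacent deletion sites counted as 1 gave 11 exonic sites rather than 19, by construction. Windows of 50 nt placed a hexamer beside 94.7% of sites rather than 68.4%, also by construction. The same windows hold one at 22.9% of all reference transcript positions and at 22.7% of exonic peak midpoints rather than 4.55%. The cause of the other shifts was not tested. No value over the hosts changed sign. Of single-host values 17 moved. Gas5 had 7 exonic peaks with any overlap and 8 with exons of all transcripts, rather than 4, and Snhg3 had 2 with the latter. At 74 tags or more Snhg12 had 2 exonic peaks and Snhg6 1. At 12 deletions or more Snhg3 had 2 exonic sites and Snhg12 had 0. With a pseudocount of 0.1, 5 rather than 6 hosts stood above the all-gene median, Snhg6 being the exception. The rescaled RPKM, the merged sites and the count without the Snhg1 run (13 sites) were chosen after seeing the data.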

Other observations

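Long non-coding genes with an annotated snoRNA inside, on the same strand, were compared with those without one. There were 22 with a snoRNA and at least 1 RPKM, and 437 without. One of the 22, Cct6a, is known as a gene for a chaperonin subunit, but GENCODE M21 types it as a processed transcript. An exonic peak was present in 21 of the 22 (95.5%) and in 237 of the 437 (54.2%), and a deletion site in 10 (45.5%) and in 30 (6.86%). Median abundance differed as well, at 25.3 and 2.73 RPKM, and its part in these shares was not tested. Without Cct6a, a peak was present in 20 of 21 (95.2%) and a site in 9 (42.9%). The 16 such hosts that are not members had a peak in 15 (93.8%), a site in 6 (37.5%), a median of 23.1 RPKM and a median log2 ratio of height to RPKM of 1.94. Without Cct6a the 15 had a peak in 14 (93.3%), a site in 5 (33.3%) and a median ratio of 1.95.

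Single genes among those 16, picked after their values were seen, ranged widely. Snhg15 had the lowest ratio, -4.62, with no peak, and Cct6a the highest level, 1197 RPKM, with 644 tags and a ratio of -0.89. 2410006H16Rik, which holds Snord49a, Snord49b and Snord65, had 429 RPKM, 1127 tags and 6 deletion sites, with a ratio of 1.39. Rab26os, which holds Snord60, had 19.5 RPKM, 197 tags in 1 peak and a ratio of 3.27. Gm15832, which holds Snord89, had 1.7 RPKM, 126 tags and a ratio of 5.55. 1810032O08Rik, with 3 Snord1 genes, had 22.7 RPKM and 27 tags, a ratio of 0.24.

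Limits on these values are shared. Each assay has 1 pooled value per gene, so no difference here has a replicate error. The sources used here describe no control precipitation. Peak height is the authors' score, its reading as tags rests on the covering tags at deletion sites, and low peaks of 10 to 20 tags carry large counting error. The RPKM divisor was inferred as exon unions that include retained introns, and is not known for Snhg1, Snhg5 and Snhg12. The ratios, those of Gas5 and Snhg1 in particular, therefore depend on the annotation used.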
